A study of Mus musculus with 8 samples.

Results

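Genes of fatty acid elongation and desaturation were followed in mouse liver, 10 in all: the elongases Elovl1, Elovl2, Elovl3, Elovl5 and Elovl7, and the desaturases Fads1, Fads2, Fads3, Fads6 and Scd2. They were chosen by name as enzymes that lengthen or desaturate long-chain and polyunsaturated fatty acids, and all 10 were found among the 22052 genes of the table. Livers came from adult male C57BL/6 mice of 8 weeks that had received corn oil by the intraperitoneal route. Of these, 4 controls were Zfp36l1fl/fl/Zfp36l2fl/fl without a recombinase, and 4 double knockouts (dKO) carried the same floxed alleles with Alb-Cre. The albumin promoter drives Cre in hepatocytes and can also have been active in precursors that hepatocytes share with bile duct cells. Cells without Cre keep both genes, and which cells lost them was not measured. The labels number the mice within each group, and each library is 1 mouse. Total RNA was sequenced, and 15253827 to 19299556 reads per library were assigned to genes. Values are normalised read counts, that is, reads per gene divided by 1 size factor per library.

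ELOVL enzymes catalyse the condensing step of the elongation cycle in the endoplasmic reticulum, which adds a pair of carbons to an acyl-CoA at each turn. FADS and SCD enzymes place double bonds with electrons passed on through cytochrome b5. In liver these steps turn dietary linoleic and alpha-linolenic acid into arachidonic and docosahexaenoic acid, and turn newly made palmitate into oleate and longer chains. ZFP36L1 and ZFP36L2 recognise AU-rich motifs such as UAUUUAU in 3' UTRs and speed the decay of the mRNAs they bind.

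The targeted genes were lower in all dKO livers. Zfp36l1 was at 1182 to 1642 normalised read counts in controls and 209 to 267 in dKO livers, a log2 change of -2.60 (SE 0.11, adjusted p = 1.65e-08 by limma). Zfp36l2 was at 997 to 1819.6 in controls and 696 to 923 in dKO livers, a log2 change of -0.96 (SE 0.17, adjusted p = 0.000689 by limma). The sources used here do not say which exons are floxed, and reads were summed over the whole gene. Exons of Zfp36l1 and of the lincRNA Gm26669 on the opposite strand share 1672 bases, 55.9% of the exon length of Zfp36l1. Gm26669 had a mean of 29.9 normalised read counts over all livers, and the strand setting of the counting is not given. Of 10 hepatocyte markers 1 was higher and 5 lower in dKO livers (median log2 change -0.38), with Ttr at -0.87, Serpina1c at -1.87 and Cyp2e1 at -2.64. Their sums were 1303551 to 1436308 normalised read counts in controls and 1221259 to 1290052 in dKO livers. Over 20055 tested genes limma called 4244 higher (21.2%) and 3410 lower (17.0%) in dKO livers, with a median log2 change of 0.03. Fewer cells of a type and less RNA per cell cannot be told apart in these whole-liver libraries.

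Since the deleted proteins bind AU-rich 3' UTRs, the heptamer TATTTAT was searched for on the sense strand of all annotated 3' UTRs (GENCODE release M21, mm10). It was found in 3 of the 10 members, Elovl2, Elovl3 and Elovl5, against 30.1% of 15424 tested genes with a 3' UTR. The sites are shown 5' to 3' as DNA with the heptamers in capitals, and Elovl6, an elongase outside the 10, is shown for comparison.
Elovl2: atcagaattaTATTTATacatattggt
Elovl3: aatggagtTATTTATATTTATatttagaa
Elovl5: gtgggtttgaTATTTATgtaaatacca
Elovl6: attatTATTTATTTATtgTATTTATatcca

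The Elovl2 heptamer lies at chr13:41182805-41182811 on the minus strand and that of Elovl5 at chr9:77984200-77984206 on the plus strand. Elovl3 holds 2 heptamers that overlap by 1 base, at chr19:46135057-46135069 on the plus strand. Elovl6 holds 3, at chr3:129636623-129636642 on the plus strand. The heptamer was not found in the 3' UTRs of Elovl1, Elovl7, Fads1, Fads2, Fads3, Fads6 or Scd2. The 3 members with the heptamer had log2 changes of -0.01 (Elovl2), -5.02 (Elovl3) and -0.27 (Elovl5). Elovl6, which holds the heptamers in 1 of its 3 transcripts with a 3' UTR, had 1.85. Scd1, a relative that is also not a member, had no heptamer in its 3' UTR and a log2 change of 1.40. A match describes the sequence only, and binding was not measured.

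Among the 10 members, 4 rose in dKO livers (Elovl1, Elovl7, Fads3 and Scd2), 2 fell (Elovl3 and Fads1) and 4 passed in neither direction (Elovl2, Elovl5, Fads2 and Fads6). With quantile normalization in place of the authors' scaling, Fads1 lost its call and Fads6 passed as higher. The share called in either direction was 38.2% over all tested genes. All 10 members passed the filter on low values, and their median log2 change was 0.12. The groups did not overlap for 5 members (Elovl1, Elovl3, Elovl7, Fads3 and Scd2), against 36.4% of all tested genes. A change that was called and at least 2-fold was seen for Elovl3, Elovl7, Fads3 and Scd2, against 16.7% of all tested genes. Each member was also tested alone with an exact permutation test (2-sided, 70 ways to assign the livers), in which 0.0286 is the smallest p possible.

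**Figure D1:**
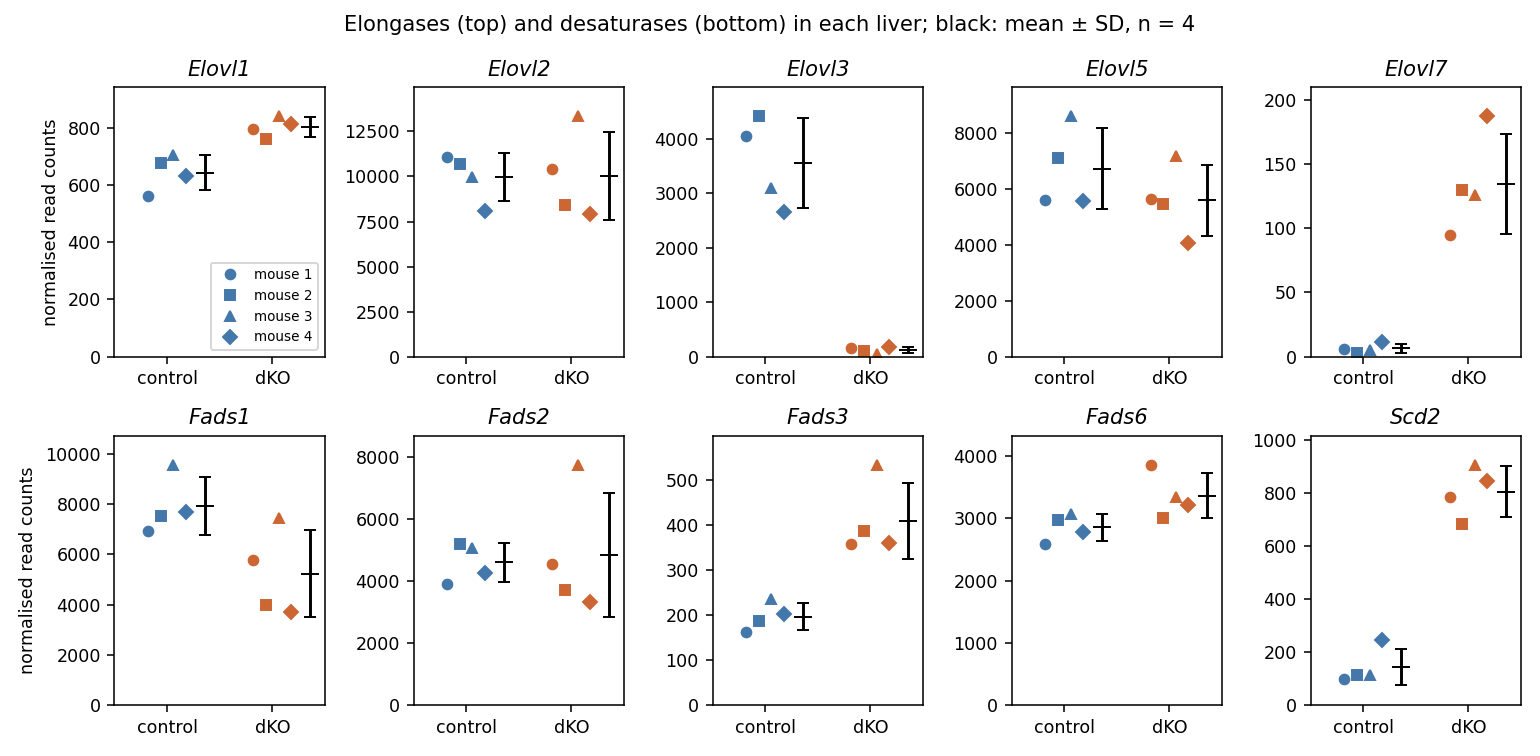
Normalised read counts (vertical axis, linear from 0) of the 5 elongases and 5 desaturases in each of 4 control (blue) and 4 dKO (orange) livers, with mean ± SD in black. Marker shapes name the mice within a group and do not pair them. Elovl3 is near the floor of its panel in all 4 dKO livers, and Elovl7 and Scd2 are near it in controls.

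Elovl3 had the largest change of the 10. ELOVL3 elongates saturated and monounsaturated chains to very long ones and in mouse liver is known for a male-biased level and a daily rhythm. Elovl3 (ENSMUSG00000038754, chr19:46131897-46135694) was at 4052, 4413, 3102 and 2646 normalised read counts in controls 1 to 4 and at 168, 95.2, 46.0 and 178 in dKO 1 to 4. Every dKO liver was far below the lowest control, and dKO 3 was the lowest of all. Its mean was 3553 ± 819 in controls and 122 ± 62.5 in dKO livers (SD, n = 4), 29.2-fold lower. The log2 change was -5.02 (SE 0.34, 95% interval -5.76 to -4.27, adjusted p = 4.07e-07 by limma). Only 32 of the 20055 tested genes had a lower log2 change.

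Elovl7, an elongase of saturated long chains, went the other way from a level near the detection limit. Elovl7 (ENSMUSG00000021696, chr13:108214404-108285683) had 6, 3, 5 and 10 reads in controls 1 to 4, or 6.16, 3.08, 5.26 and 11.4 normalised read counts. In dKO 1 to 4 it was at 94.5, 129, 126 and 187. The lowest dKO liver was well above control 4, the highest control. The log2 change was 4.36 (SE 0.37, 95% interval 3.57 to 5.16, adjusted p = 2.02e-06 by limma), and 104 tested genes had a higher one. With so few reads in controls, the size of this change depends on the pseudocount of 0.5 more than that of the other members. Without control 4 it was 4.66.

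Elovl1 rose by a small amount that was even across livers. ELOVL1 makes very long saturated and monounsaturated chains, many of which enter sphingolipids. Elovl1 (ENSMUSG00000006390, chr4:118428093-118432953) was at 561, 675, 703 and 630.2 normalised read counts in controls 1 to 4 and at 793, 758, 839.7 and 814 in dKO 1 to 4. The groups did not overlap, and the log2 change was 0.32 (SE 0.09, 95% interval 0.14 to 0.51, adjusted p = 0.00974 by limma). Exons of Elovl1 and of Cdc20 on the opposite strand share 53 bases, 1.94% of the exon length of Elovl1, and the sources used here do not give the strand setting of the counting.

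The elongases of polyunsaturated chains did not pass the test. ELOVL2 carries out the last elongations on the way to docosahexaenoic acid, and ELOVL5 the earlier ones. Elovl2 (ENSMUSG00000021364, chr13:41182381-41220405) was at 11082, 10719, 9999.5 and 8098 normalised read counts in controls 1 to 4 and at 10434, 8399, 13349.8 and 7937 in dKO 1 to 4. The dKO range spanned the whole control range. The difference was -0.01 on the log2 scale with a 95% interval of -0.35 to 0.32 (adjusted p = 0.96 by limma).

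Elovl5 (ENSMUSG00000032349, chr9:77917364-77984519) was at 5581, 7101, 8589 and 5569.6 normalised read counts in controls 1 to 4 and at 5633, 5469, 7159 and 4051 in dKO 1 to 4. The ranges overlapped, with dKO 4 the lowest liver and control 3 the highest. The difference was -0.27 on the log2 scale with a 95% interval of -0.64 to 0.10 (adjusted p = 0.236 by limma).

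Among the desaturases, Scd2 had the largest change. SCD2 is a stearoyl-CoA desaturase that makes monounsaturated fatty acids and is known mainly from brain and from developing liver, whereas SCD1 is the main form in adult liver. Scd2 (ENSMUSG00000025203, chr19:44293674-44306864) was at 99.6, 114, 116 and 246 normalised read counts in controls 1 to 4 and at 786, 683, 907 and 844 in dKO 1 to 4. Control 4 had more than the other controls, and all dKO livers were above it. The mean was 144 ± 68.5 in controls and 805 ± 95.1 in dKO livers (SD, n = 4), a log2 change of 2.57 (SE 0.23, 95% interval 2.08 to 3.07, adjusted p = 3.27e-06 by limma).

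Part of the Scd2 transcript cannot be told from its relatives by short reads. Of 5461 words of 50 bases in its transcripts, 217 (3.97%) also occur in other genes, 145 of them in Scd1. Scd1 was at 35366, 71874, 166867 and 83082 normalised read counts in controls 1 to 4 and at 196582, 228182, 286749 and 131874 in dKO 1 to 4. In controls the mean was 89297 for Scd1 and 144 for Scd2. Among controls Scd1 was highest in control 3 and Scd2 in control 4, and among dKO livers both were highest in dKO 3. The sources used here do not say how reads with several matches were treated, and their part in the Scd2 values was not tested.

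Fads3 rose 2.08-fold. FADS3 is known to desaturate the sphingoid bases of ceramides and lies beside Fads2 on chromosome 19, 2654 bases away. Fads3 (ENSMUSG00000024664, chr19:10041569-10060110) was at 162, 187, 236 and 204 normalised read counts in controls 1 to 4 and at 357, 387, 534 and 359 in dKO 1 to 4. The lowest dKO liver exceeded the highest control, and dKO 3 was the highest. The log2 change was 1.05 (SE 0.15, 95% interval 0.72 to 1.37, adjusted p = 0.000143 by limma).

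Fads1 and Fads2 encode successive desaturases of polyunsaturated fatty acids, FADS2 acting first and FADS1 later, on the way to arachidonic and eicosapentaenoic acid. Fads1 (ENSMUSG00000010663, chr19:10182888-10196877) was at 6914, 7509, 9564 and 7703 normalised read counts in controls 1 to 4 and at 5774, 3976, 7447 and 3722 in dKO 1 to 4. Only dKO 3 lay within the control range. Its log2 change was -0.65 (SE 0.19, 95% interval -1.06 to -0.24, adjusted p = 0.0162 by limma), with p = 0.0571 in the exact permutation test. Adjusted p was 0.145 with quantile normalization, 0.0651 with robust variances, 0.0578 without dKO 2 and 0.0541 without dKO 4.

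Fads2 (ENSMUSG00000024665, chr19:10062765-10101746) was at 3902, 5196, 5058 and 4248 normalised read counts in controls 1 to 4 and at 4537, 3723, 7743 and 3338 in dKO 1 to 4. The dKO livers lay on both sides of the controls, with dKO 3 above all of them. The 95% interval of the log2 difference was -0.45 to 0.46 (adjusted p = 0.998 by limma).

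Fads6, whose substrate is little known, came close to the threshold. Fads6 (ENSMUSG00000044788, chr11:115279622-115297663) was at 2588, 2969, 3065 and 2777 normalised read counts in controls 1 to 4 and at 3855, 3007, 3341 and 3218 in dKO 1 to 4. Only dKO 2 lay within the control range. The log2 difference was 0.23 (SE 0.09, 95% interval 0.04 to 0.42) with an adjusted p of 0.0543 by limma. In 6 of 18 alternative settings it passed, among them edgeR (adjusted p = 0.046) and DESeq2 (adjusted p = 0.0435) on the read counts.

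**Figure D2:**
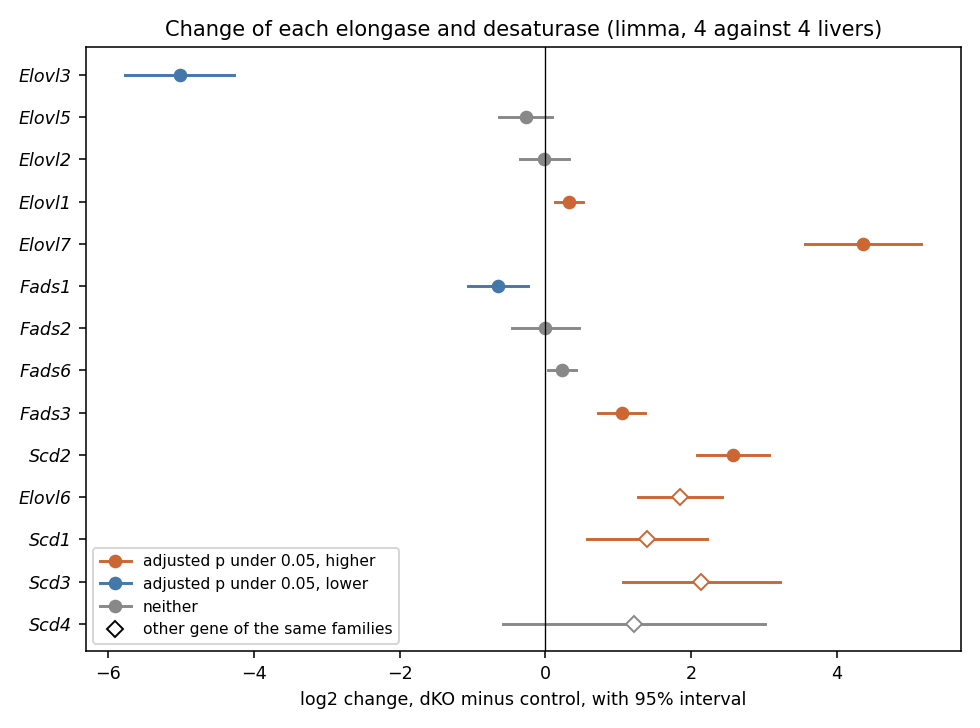
Log2 change, dKO minus control (horizontal axis), of each of the 10 members (filled circles) and 4 relatives (open diamonds), with 95% intervals from limma over 4 control and 4 dKO livers. Orange and blue mark adjusted p under 0.05, higher and lower, and grey neither; with quantile normalization Fads1 turns grey and Fads6 orange. Elovl3 stands at -5.02 and Elovl7 at 4.36.

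The close relatives outside the 10 were read in the same fit. Of 6 tested, 5 were higher and none lower (Elovl6, Scd1, Scd3, Degs1 and Degs2), with a median log2 change of 1.53. Elovl6, which elongates palmitate to stearate, was at 609, 961, 929 and 823 normalised read counts in controls 1 to 4 and at 2259.6, 2903, 5712 and 2006 in dKO 1 to 4, a log2 change of 1.85 (SE 0.26, adjusted p = 0.000144 by limma). The groups did not overlap. Scd1 rose by 1.40 on the log2 scale (SE 0.38, adjusted p = 0.011 by limma), but dKO 4 lay below control 3, and with robust variances the adjusted p was 0.0742. Degs1, which introduces the double bond of ceramide, rose by 0.81 (SE 0.09, adjusted p = 2.10e-05 by limma).

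Levels were compared between genes per kb of exon. In controls Elovl2 was highest with 2515 ± 335 normalised read counts per kb (SD, n = 4). It was followed by Elovl5 with 1905 ± 410.1, Elovl3 with 1799 ± 415, Fads1 with 1646 ± 238 and Fads2 with 1396 ± 190.1, and each of these 5 overlapped its neighbour in the order. Well below came Fads6 with 428 ± 31.8 and Elovl1 with 236 ± 22.7 per kb. Fads3 with 52.0 ± 8.12 and Scd2 with 26.3 ± 12.5 overlapped each other, and Elovl7 was last with 1.62 ± 0.884.

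In dKO livers the upper part of the order was Elovl2, Elovl5, Fads2 and Fads1, again with overlapping neighbours. Elovl3 had moved from the third to the ninth place, with 61.6 ± 31.7 normalised read counts per kb (SD, n = 4), where it overlapped Elovl7 with 33.5 ± 9.62. Scd2, with 147 ± 17.4 per kb, now stood beside Fads3, with 108 ± 22.2, and their ranges overlapped. Scd1 was far above all members in both groups, with 18254 ± 11362 per kb in controls and 43100.3 ± 13196 in dKO livers.

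Shares within a liver show the mix of isoenzymes and need no scaling between libraries. For 15 such shares and ratios an exact permutation test was run, with Benjamini-Hochberg adjustment over the 15, and the smallest adjusted p reached was 0.0429. Elovl3 made up 30.5%, 30.4%, 22.6% and 25.2% of the summed elongase level per kb in controls 1 to 4. In dKO 1 to 4 its share was 1.71%, 1.08%, 0.350% and 2.31%. The mean difference was -25.8 percentage points (adjusted p = 0.0429, exact permutation test). With any 1 liver left out the Elovl3 difference was -27.3 to -24.7, with an adjusted p of 0.0429 to 0.0612 that was over the threshold in 6 of 8 cases. The Elovl3 shares of the groups stayed apart in every case. The adjusted p depends on how many of the 15 measures reach the smallest p possible, so it does not measure how far the Elovl3 shares lie apart.

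The other elongases had larger mean shares of the same sum, which the fall of Elovl3 alone raises. Elovl6 made up 1.98% ± 0.417 of the whole pool in controls and 9.62% ± 2.79 in dKO livers, and Elovl7 0.0264% ± 0.0188 and 0.715% ± 0.341 (SD, n = 4, adjusted p = 0.0429 for each, exact permutation test). Elovl1 made up 3.62% ± 0.551 and 6.08% ± 1.25, Elovl2 38.2% ± 2.34 and 50.5% ± 2.35, and Elovl5 29.0% ± 4.86 and 31.7% ± 2.24 (adjusted p = 0.0429, 0.0429 and 0.371, exact permutation test). For Elovl5 the groups overlapped. In a calculation added after the data were seen, Elovl3 was left out of the sum, which was then 4787 ± 604 per kb in controls and 4941 ± 1209 in dKO livers. Of this sum Elovl2 was 52.7% ± 5.28 and 51.2% ± 2.59, Elovl5 39.6% ± 4.74 and 32.1% ± 2.20, and Elovl1 4.96% ± 0.596 and 6.18% ± 1.31, with overlapping groups for all 3 (adjusted p = 0.714, 0.0889 and 0.20, exact permutation test). Elovl6 was 2.71% ± 0.507 and 9.74% ± 2.74, and Elovl7 0.0359% ± 0.0248 and 0.727% ± 0.352. For both the groups did not overlap, with the smallest p possible (0.0286) and an adjusted p of 0.0571 (exact permutation test).

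**Figure D3:**
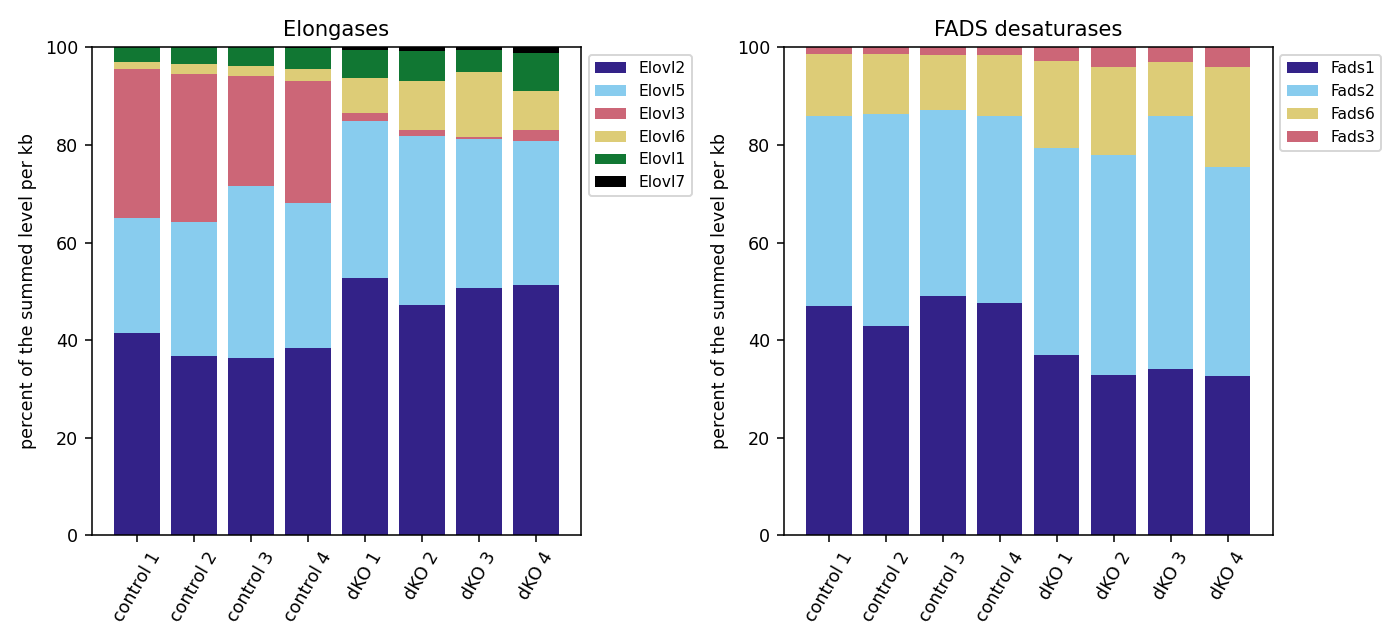
Share of each elongase (left) and each FADS desaturase (right) in the summed level per kb of exon of its family, in percent, for each of 4 control and 4 dKO livers. The Elovl3 band takes 22.6% to 30.5% in controls and 0.350% to 2.31% in dKO livers, and the Fads1 band is narrower in every dKO liver than in any control.

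The balance of Fads1 to Fads2 separated the groups although neither gene did so alone. The log2 ratio of Fads1 to Fads2 per kb was 0.28, -0.02, 0.37 and 0.31 in controls 1 to 4 and stood at -0.20, -0.45, -0.60 and -0.39 in dKO 1 to 4. The lowest control was above the highest dKO liver, and the difference of means was -0.65 (adjusted p = 0.0429, exact permutation test). With any 1 liver left out the difference in the Fads1 to Fads2 ratio was -0.73 to -0.58, and the adjusted p was over the threshold in 7 of 8 cases, at up to 0.0779. Fads1 took 46.7% ± 2.64 of the summed FADS level in controls and 34.2% ± 1.94 in dKO livers (SD, n = 4, adjusted p = 0.0429, exact permutation test). Fads3 took 1.47% ± 0.113 and 3.52% ± 0.607, with the same adjusted p. The shares of Fads2 (39.6% ± 2.55 and 45.5% ± 4.33, adjusted p = 0.107) and Fads6 (12.2% ± 0.579 and 16.8% ± 4.03, adjusted p = 0.165) did not pass in the exact permutation test.

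Scd2 remained a small part of the SCD pool. Its share of Scd1 to Scd4 per kb was 0.18% ± 0.0959 in controls and 0.369% ± 0.139 in dKO livers, and the log2 ratio of Scd2 to Scd1 rose from -9.33 ± 0.97 to -8.14 ± 0.50 (SD, n = 4, adjusted p = 0.0429 for both, exact permutation test). Leaving out any 1 liver moved the adjusted p of the Scd2 to Scd1 ratio over the threshold, to 0.0536 to 0.195. The log2 ratio of Elovl5 to Elovl2 was -0.41 ± 0.32 in controls and -0.67 ± 0.15 in dKO livers (adjusted p = 0.276, exact permutation test).

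Single livers differed within a group, and several members were high in the same one. Of the dKO livers, dKO 3 was the highest for 7 of the 10 members and the lowest for Elovl3, and dKO 4 was the lowest for 4. On the log2 scale dKO 3 lay above the mean of the other dKO livers by 1.01 for Fads2, 0.76 for Fads1, 0.59 for Elovl2, 0.54 for Fads3 and 0.52 for Elovl5, and below it for Elovl3 (-1.61). In the same liver the deviation was 1.65 for Fasn, fatty acid synthase, 1.27 for Elovl6, 0.66 for Scd1 and 0.50 for Srebf1, the lipogenic transcription factor. Without dKO 3 the log2 change was -0.84 for Fads1 (adjusted p = 0.00142), -0.25 for Fads2 (adjusted p = 0.145) and 0.91 for Fads3, all by limma.

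**Figure D4:**
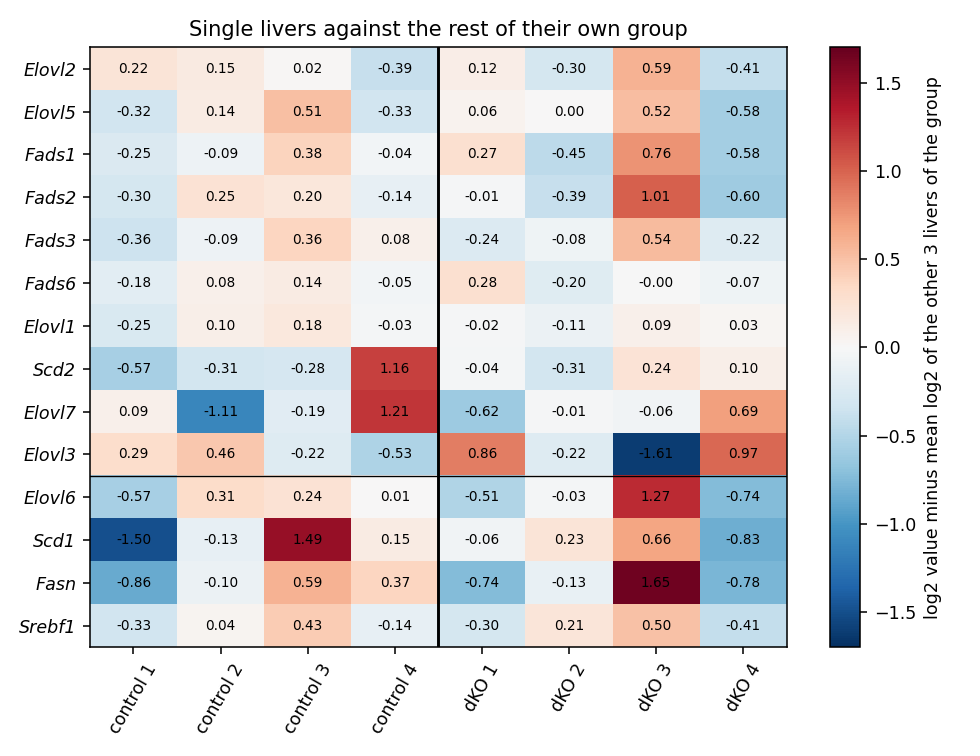
Log2 value of each gene (rows) in each liver (columns) minus the mean log2 value of the other 3 livers of its group, for the 10 members and, below the line, 4 genes of lipogenesis. In dKO 3 most rows are positive, up to 1.01 among members (Fads2), and Elovl3 is at -1.61; in control 4 Scd2 is at 1.16 and Elovl7 at 1.21.

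Control 4 differed from its group in another set. It was above the mean of the other controls by 1.16 for Scd2 and 1.21 for Elovl7 on the log2 scale. The same liver deviated by 2.62 for Col1a1, a collagen chain of activated stellate cells and fibroblasts, and by 0.64 for Cd68, a macrophage marker. Without control 4 the log2 change of Scd2 was 2.87 (limma).

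The genes that feed the elongases and desaturases were mixed in direction. Of 6 partners of the elongation cycle, 2 were higher and 1 lower, with a median log2 change of -0.05. Hsd17b12, the reductase of the second step, fell from 2708 ± 45.5 to 1937 ± 109 normalised read counts (SD, n = 4), a log2 change of -0.48 (adjusted p = 0.000101 by limma). The dehydratases Hacd2 and Hacd4 rose by 0.27 (adjusted p = 0.00616) and 1.07 (adjusted p = 0.00146) on the log2 scale. Of 7 genes of the cytochrome b5 supply, 1 was higher and 2 lower (median -0.10). Cyb5b fell from 10897 ± 871 to 4642 ± 367 and Cyb5a from 13973 ± 585 to 10142 ± 831, while Por, cytochrome P450 reductase, rose from 8009.9 ± 914 to 13641 ± 1890.2 (adjusted p 4.34e-07, 0.000714 and 0.000203 by limma).

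Acyl-CoA synthetases supply the substrates as CoA esters. Of 10 tested, 2 were higher and 3 lower, with a median log2 change of -0.25. Acsl4, which prefers arachidonic acid, rose from 819 ± 123 to 2003 ± 79.2 normalised read counts (SD, n = 4; log2 change 1.30, adjusted p = 1.31e-06 by limma). Acsl1, a main hepatocyte form, fell from 17613 ± 2742 to 6379 ± 713 (log2 change -1.46, adjusted p = 1.42e-06 by limma), and Slc27a2 fell by 0.77 on the log2 scale (adjusted p = 0.000117).

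Genes that use the products also split. Of 13 genes of phospholipid acyl chain remodelling, 5 were higher and 3 lower (median 0.20). Lpcat3, which places polyunsaturated chains into phospholipids, fell by 0.61 on the log2 scale (adjusted p = 0.000461), and Lpcat1 and Lpcat2 rose by 1.16 (adjusted p = 0.000378) and 1.87 (adjusted p = 1.24e-06, all by limma). Of 12 genes of peroxisomal chain shortening, which trims very long chains, 2 were higher and 9 lower (median -0.60), among the latter Abcd3 (-1.08), Hsd17b4 (-0.90) and Acot8 (-1.07). Of 14 genes of eicosanoid synthesis, 6 were higher and 1 lower (median 1.01), and Hpgds, Alox5ap and Pla2g4a rose by 1.98, 1.81 and 1.11. Of 8 genes of ceramide synthesis, 4 were higher and none lower (median 0.56), with Sptlc2, a subunit of the rate-limiting enzyme, at 1.31, Cers5 at 0.92 and Cers6 at 1.10.

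The regulators known for these enzymes did not all move one way. Of 15, 4 were higher and 6 lower, with a median log2 change of -0.12. Srebf1 was at 3964 ± 683 normalised read counts in controls and 5857 ± 1320 in dKO livers (SD, n = 4; log2 change 0.55, adjusted p = 0.0123 by limma), with overlapping groups. Pparg, an inducer of lipid storage, rose by 1.58 (adjusted p = 6.25e-07) and Mlx, the partner of ChREBP, by 0.66 (adjusted p = 0.000172, both by limma). Mlxipl, which encodes ChREBP, fell from 9058 ± 532 to 3109.8 ± 743 (log2 change -1.57, adjusted p = 2.04e-06 by limma). Of 10 genes of de novo lipogenesis, 5 were higher and 2 lower (median 0.29), with Fasn at 1.84 (adjusted p = 0.00112), Acaca at 1.07 (adjusted p = 0.0031) and Pnpla3 at 2.29 (adjusted p = 0.00175, all by limma). Over the 13 lists of related genes together, 49 of 143 tested were higher and 42 lower, against 21.2% and 17.0% of all tested genes. The 13 lists include the sex-biased and clock genes described below, and they were chosen with earlier results of these data known.

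Beside the Elovl3 result stand genes with a known sex bias and the clock. Of 13 male-biased liver genes none was higher and 10 were lower (median log2 change -3.74). Their summed level was 75742 to 113186 normalised read counts in controls and 7644 to 14013 in dKO livers. Slco1a1 was at 5080.1 ± 453 and 50.03 ± 15.4 normalised read counts, and Serpina1e at 49692 ± 16222 and 814 ± 154 (SD, n = 4). Hsd3b5 was at 1457 ± 227 in controls and had at most 1 read in any dKO liver. Of 13 female-biased genes 6 were higher and none lower (median 1.76), with summed levels of 236 to 835 in controls and 6693 to 16572 in dKO livers. Cyp2a4 was at 84.9 ± 35.3 and 7515 ± 3829.9 and Cux2 at 20.8 ± 7.44 and 839.7 ± 411, while Cyp3a41a and Sult2a1 were at 0 in all controls.

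Of 16 clock genes 7 were higher and 5 lower (median log2 change 0.25). Nr1d1, a clock repressor, fell from 2911 ± 254 to 609 ± 83.8 normalised read counts (SD, n = 4; log2 change -2.26, adjusted p = 1.76e-08 by limma). Per2 and Per3 rose by 1.92 (adjusted p = 1.83e-07) and 2.27 (adjusted p = 1.94e-06, both by limma). The sources used here do not give the hour of collection. The part of sex-biased and clock genes in the Elovl3 change was not tested.

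Markers of several other liver cell types were also higher in dKO livers, while those of lymphocytes and endothelial cells were mixed. Of 12 stellate cell and fibroblast markers 10 were higher and none lower, with a median log2 change of 1.22. Their summed level was 4619 to 13903 normalised read counts in controls, the highest in control 4, and 25099.9 to 33462 in dKO livers. Lum, Pdgfrb and Rgs5 rose by 2.63, 2.19 and 0.91 on the log2 scale. Of 10 cholangiocyte markers 9 were higher and none lower (median 1.60), and Spp1, Prom1 and Cftr rose by 3.85, 3.64 and 4.27. Their sums were 977 to 1806 in controls and 8656 to 12893 in dKO livers. Spp1 alone was a large part of these sums, with a mean of 705 of 1233 in controls and 9498 of 10707 in dKO livers. Of 14 macrophage and Kupffer cell markers 11 were higher and none lower (median 1.22), with sums of 10259 to 13688 and 19019.8 to 29333. C1qa, C1qb and C1qc rose by 1.20, 1.41 and 1.23, while Clec4f, Timd4 and Vsig4 passed in neither direction.

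Of 13 monocyte and neutrophil markers 12 were higher and none lower (median 2.68). Their sums were 259.8 to 1011 in controls and 1697 to 2574 in dKO livers, Plac8 rose by 2.08, Ngp had at most 1 read in any control, and Ltf and Mpo were at 0 in all controls. Of 11 endothelial markers 5 were higher and 2 lower (median 0.20, sums of 6555 to 8264 and 8627 to 11619.8). Cdh5 (0.76), Pecam1 (0.59) and Vwf (1.59) were among the higher, and the 2 lower were Clec4g and Oit3. Of 11 lymphocyte markers 1 was higher (Cd4, 1.06) and 3 lower, Cd79a (-1.77) among them (median 0.45, sums of 89.4 to 136 and 107 to 138). Of 3 tested adipocyte markers, Cidec (0.57) and Fabp4 (1.55) were higher (median 0.57, sums of 209 to 272 and 428 to 756). The defining gene Adipoq had a mean under 0.5 normalised read counts over all livers, so it was not tested, and was at 0 in all dKO livers.

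Of 7 erythroid genes 5 were higher and 1 lower (median 1.07, sums of 4171 to 6221 and 4931 to 15474), with Alas2 at -1.59, Hbb-bs at 1.07 and Hba-a2 at 1.26. The part of these cell types in the changes of Elovl1, Elovl7, Fads3, Scd2, Elovl3 and Fads1 was not tested.

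**Figure D5:**
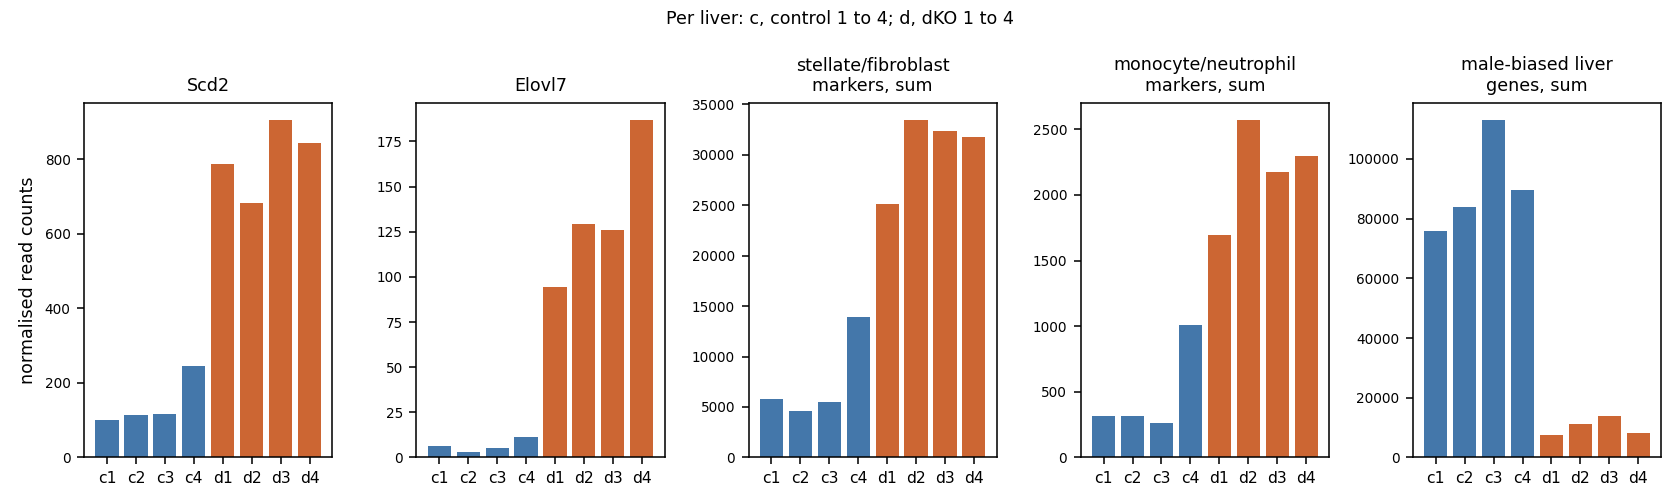
Normalised read counts (vertical axes from 0, each panel on its own scale) of Scd2 and Elovl7 and summed normalised read counts of 3 gene lists, for control 1 to 4 (c, blue) and dKO 1 to 4 (d, orange). Control 4 is the highest control for Scd2, Elovl7 and the stellate and monocyte sums, and all dKO livers lie above it in these 4 panels and below every control in the male-biased one.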

How the data were processed

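Liver RNA of 8 mice was analysed, 4 per group. The tools named in the submitters' processing notes, without roles, are HISAT2 2.0.5, fastp, DESeq2 and featureCounts 1.5.0-p3, and the build is mm10. The deposited signal, named FPKM by the authors, was found to be whole read counts divided by 1 size factor per library (100% of values within 0.001 of whole reads), with no division by length. FPKM had been assumed when the test was planned, and the log-scale test was retained. For dKO 1 the step is too near 1 for an automatic check to part it from rounding. Identifiers matched symbols for 21796 of 22052 genes. Genes with a mean of 0.5 or more (20055) were tested as log2(value + 0.5) with limma 3.58.1 (trend, R 4.3.3), 2-sided, Benjamini-Hochberg adjusted over all tested genes, at 0.05. Alternatives were other pseudocounts, filters, scalings and variances, a replicate block, each liver left out, and edgeR 4.0.16 and DESeq2 1.42.0 on the recovered read counts. Levels per kb and 3' UTRs used GENCODE release M21. Chi-square per gene between replicates was 15.0 to 32.5, so no library was a copy. A floor of 3 reads is 2.55 to 3.43 normalised read counts and covers counting error only. The code was tested on simulated data.

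The members and gene lists were chosen with earlier results of these data known. Named genes are the 10 members, Elovl6 and Scd1 to Scd4, the targeted genes and up to 3 called genes with the smallest adjusted p of each of 13 lists of related genes and 9 marker lists, of which a few are not reported here. Srebf1, Col1a1, Cd68, Clec4g, Oit3, Clec4f, Timd4, Vsig4 and genes at 0 fall outside this rule and were chosen after their values were seen. Scd3 and Scd4 had log2 changes of 2.14 (adjusted p = 0.00423) and 1.22 (adjusted p = 0.278). Elovl4 is not analysed here.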

Additional observations from a re-analysis of the deposited data

Results flagged for a closer look

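In 62 groups of 4 values (16 genes and 15 shares or ratios in each genotype), single livers far from the other 3 of their group were looked for with Dixon's criterion, which chance meets in about 1 of 20 groups. Scd2 in control 4 was at 246 normalised read counts, with the next control at 116. Scd3 in control 3 was at 14.7, with the next control at 4.10, and Scd4 in dKO 3 was at 17.9, with the next dKO liver at 5.59. Fads2 made up 43.4% of the FADS level in control 2, with the next control at 38.8%. Of the targeted genes, Zfp36l1 in dKO 4 was at 267 with the next dKO liver at 214, and Zfp36l2 in control 3 was at 997 with the next control at 1722.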

How the results depend on the processing

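Elovl1, Elovl3, Elovl7, Fads3 and Scd2 kept their direction and call in all 18 alternatives, with log2 changes of 0.26 to 0.37, -5.26 to -4.61, 4.08 to 4.66, 0.91 to 1.14 and 2.43 to 2.87. Fads1 lost its call with quantile normalization (-0.39, adjusted p = 0.145) and robust variances (-0.65, adjusted p = 0.0651), which left 1 member lower in each case, and ranged from -0.84 to -0.50 with 1 liver left out (adjusted p of 0.00142 to 0.0578, 1 to 2 members lower). Fads6 passed with DESeq2 (0.24), edgeR (0.24), a filter at 10 (0.23) and quantile normalization (0.37), and ranged from 0.16 to 0.28 with 1 liver left out. Elovl2 changed sign with DESeq2 (0.00798), edgeR (0.0127) and quantile normalization (0.29), and with livers left out ranged from -0.161 to 0.0894. Fads2 changed sign with TMM scaling (-0.0145) and ranged from -0.25 to 0.15. Quantile normalization moved the median of all genes by -0.11 and called 3638 genes higher and 4312 lower.

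Without division by length the difference in share was 1.22 points for Elovl1, 4.63 for Elovl2, -2.63 for Elovl5 and -0.214 for Scd1 (adjusted p = 0.0857, 0.107, 0.429 and 0.0476, exact permutation test). With 1 liver left out it ranged from 1.94 to 2.95 (Elovl1), 11.5 to 13.4 (Elovl2), -27.3 to -24.7 (Elovl3), 6.39 to 8.50 (Elovl6), 0.529 to 0.77 (Elovl7), -13.8 to -11.7 (Fads1), 1.86 to 2.25 (Fads3), 3.42 to 6.55 (Fads6), -0.228 to -0.125 (Scd1) and 0.122 to 0.223 points (Scd2). The ratios ranged from -0.73 to -0.58 (Fads1 to Fads2) and 0.74 to 1.44 (Scd2 to Scd1). Of the measures called with all livers, the shares fell short of the threshold in 6 of 8 such settings, the Fads1 to Fads2 ratio in 7 and the Scd2 to Scd1 ratio in 8. The adjusted p also depends on how many measures reach the smallest p possible in a setting. With Elovl3 left out of the elongase sum, an alternative chosen after seeing the data, the difference was 1.22 points for Elovl1, -1.48 for Elovl2, -7.46 for Elovl5, 7.03 for Elovl6 and 0.691 for Elovl7. None passed the threshold, although Elovl6 and Elovl7 reached the smallest p possible before adjustment. The Elovl2 and Elovl5 signs change there because the sum no longer holds the fall of Elovl3. The cause of the other changes was not tested.

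Mouse numbers were not used to pair the libraries in the main test. The deviations of same-numbered mice correlated at 0.0324, -0.0693, 0.0375 and 0.0769, and 5 of 8 libraries correlated best with their own number. These values do not settle whether same-numbered mice share a litter or batch. With the replicate block limma called 4021 genes higher and 3112 lower, and no call of the 10 members changed.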
